A study of Homo sapiens with 4 samples.

Results

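Inhibitor of apoptosis proteins and the proteins that antagonise them were examined in myeloma cells exposed to meayamicin B. The 8 genes were XIAP, BIRC2, BIRC3, BIRC5 and BIRC6, which encode inhibitors, and DIABLO, HTRA2 and XAF1, which encode antagonists. They were chosen by name, and every array row whose only gene symbol was 1 of them was taken, which gave 10 rows of 135750 tested and 8 of 33458 named genes. The rule uses names and no measured value, although the genes were picked with earlier results of these data known. Meayamicin B inhibits pre-mRNA splicing by targeting SF3B, a part of the U2 snRNP. H929 is an established line of human multiple myeloma, a plasma cell cancer. There were 2 untreated samples and 2 samples given 3 nM meayamicin B for 8 h, all H929 cells in the same culture medium, and the total RNA of each was hybridised to its own whole-transcript array. The labels call the controls untreated and name no vehicle, and separate cultures for the replicates are not stated. Every p-value therefore measures array-to-array spread alone, and that spread may be technical.

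Caspases are proteases that dismantle a cell during apoptosis. Inhibitor of apoptosis proteins share a zinc-binding fold, the BIR domain. XIAP uses its BIR domains to bind and block caspases, among them the initiator CASP9, whereas BIRC2 (cIAP1) and BIRC3 (cIAP2) are ubiquitin ligases that act mainly in TNF receptor signalling and keep the noncanonical NF-kB kinase MAP3K14 unstable. BIRC5 (survivin) is a subunit of the chromosomal passenger complex of mitosis, and BIRC6 (BRUCE, or apollon) is a very large protein that joins a BIR domain to a ubiquitin-conjugating domain. When the mitochondrial outer membrane is permeabilised, DIABLO (SMAC) and HTRA2 (OMI) reach the cytosol and occupy the BIR domains with a short N-terminal motif, which frees caspases. XAF1 is an interferon-inducible protein that binds XIAP. In myeloma this family has been studied because cIAP loss is a recurrent way in which noncanonical NF-kB signalling becomes active.

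The arrays had medians of 3.03 to 3.08 on the deposited log2 scale. Background was set at the 95th percentile of 612 negative control rows of each array, which came to 4.50 and 4.76 without treatment and to 5.03 and 5.13 with it. A gene counted as above background when both arrays of a group exceeded it, and 14256 genes did. Of 11 plasma cell markers all 11 were above it, among them JCHAIN at 13.11 to 13.32. The T cell markers CD3D, CD3G, CD2, CD4 and CD8A exceeded it in 0 arrays, whereas CD3E, at 8.26 to 8.63, did so in all 4 and CD5, at 4.51 to 5.57, in 3 of 4. Above background were 2 of 8 monocyte, 2 of 5 fibroblast, 2 of 5 epithelial, 1 of 3 erythroid and 2 of 4 endothelial markers. Pearson's r across these genes, which are no independent replicates, came to 0.989 for the untreated pair, 0.985 for the treated pair and 0.957 to 0.968 between groups. Expression is per gene, so splice isoforms, such as those of BIRC5, were not told apart.

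Of the 8 genes, 6 were above background in all 4 arrays, XAF1 was close to it, and the row named BIRC3 was below it in all 4. BIRC6 carried the largest difference and was lower in both treated arrays. BIRC2 and HTRA2 also had lower values in both treated arrays than in either untreated array, BIRC5 and DIABLO had higher ones, and XIAP overlapped between the groups. With limma's default prior and Benjamini-Hochberg adjustment over all rows, 0 of the 8 genes passed an adjusted p under 0.05, against 0.0329% of all genes and 0.0162% of all rows. An unadjusted limma p under 0.05 was reached by 2 genes, BIRC6 and BIRC2, both lower. It was reached by 9.42% of all rows, by 9.92% of all genes as lower and 3.63% as higher, and among genes above background by 19.5% and 3.98%. In a limma fit whose prior variance followed the signal level, called the trended fit, 1 gene passed, BIRC6, which was lower. In that fit 2.81% of all genes were called lower and 0.344% higher. Among genes above background the shares were 6.54% and 0.715%.

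**Figure D1:**
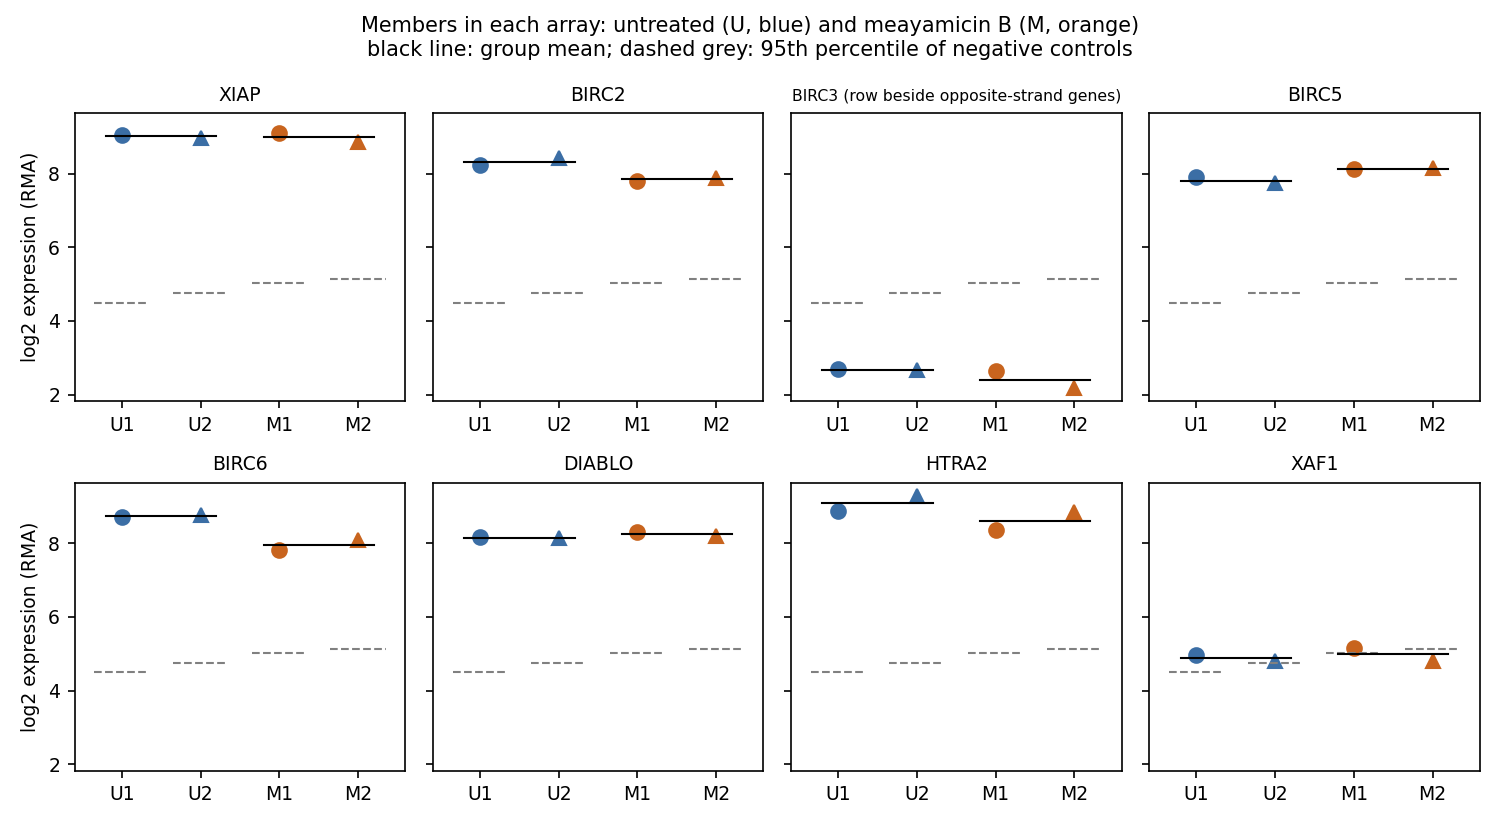
Log2 expression (RMA, vertical axis) of the 8 genes in each array, with untreated arrays U1 and U2 in blue and meayamicin B arrays M1 and M2 in orange, circles for replicate 1 and triangles for replicate 2. Black lines are group means and dashed grey lines the background of each array, and BIRC6 lies at 8.72 and 8.76 untreated against 7.82 and 8.09 treated while the row named BIRC3 stays below background.

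BIRC3 has to be set apart before the other genes are described. BIRC3 is transcribed from the plus strand of chromosome 11, at 102317484 to 102339403 (GRCh38), and lies directly before BIRC2, at 102347214 to 102378670 on the same strand. Its only single-gene row carries no gene ID in the platform annotation. Row identifiers run in genome order by strand, and among the nearest rows of genes with a known strand, up to 10 on each side, 0 belonged to genes of the plus strand and 20 to genes of the minus strand. The rows of XIAP, BIRC5, BIRC6, HTRA2 and XAF1 each stood among 20 plus-strand and 0 minus-strand neighbours, that of BIRC2 among 18 and 2, and that of DIABLO, a minus-strand gene, among 0 and 16. The row named BIRC3 read 2.69 and 2.66 untreated and 2.64 and 2.18 treated, below background throughout. Whether it measures BIRC3 mRNA was not tested, so no difference is given for it (limma adjusted p = 0.791) and its values are not read as a level of cIAP2.

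BIRC3 is a known NF-kB target gene, and its promoter is shown because it holds 2 matches to the NF-kB binding motif while BIRC2, its neighbour, has 0 in its windows. The sequence is the 250 bases before the RefSeq start site at chr11:102317234-102317483 (GRCh38.p14, plus strand), with capitals marking matches to the kappaB consensus on either strand.
BIRC3: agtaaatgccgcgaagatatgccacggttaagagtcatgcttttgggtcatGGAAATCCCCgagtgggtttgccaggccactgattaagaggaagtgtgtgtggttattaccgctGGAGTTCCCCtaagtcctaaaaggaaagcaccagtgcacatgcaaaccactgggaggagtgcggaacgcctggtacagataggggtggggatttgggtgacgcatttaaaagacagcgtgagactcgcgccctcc
The matches begin at positions -199 and -135 relative to the start site. Of the 8 genes, 7 had promoter windows in the RefSeq table, 16 windows in all, each from 250 bases before to 50 after a start site. The consensus also matched in 1 of the windows of BIRC6 and 1 of XAF1, and the 30 bases around these matches are given for comparison, with the match in capitals, at chr2:32356798-32356827 and chr17:6755933-6755962, both on the plus strand.
BIRC6: tcgcaagggcGGGGGTCCCCacctagcgga
XAF1: caggaatcaaGGGGAACTCCtgagccgaga
Of 35116 windows in the table, 5.91% hold a match. A core of the interferon-stimulated response element, GAAA followed by any 2 bases and GAAA again, was searched on both strands, had 0 matches in the windows of these genes and occurred in 3.57% of all windows. A match of letters is not a binding site.

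XIAP, the member that inhibits caspases directly, lies on chromosome X at 123859708 to 123913972. It was at 9.05 and 8.97 in the untreated arrays and at 9.11 and 8.86 in the treated arrays. The treated values lay on either side of the untreated ones. The log2 difference was -0.02 (SE 0.20, limma adjusted p = 0.987), with a 95% confidence interval of -0.49 to 0.44, which allows a level between 0.714 and 1.35 times the untreated one. Replicate pair 1 gave 0.06 and replicate pair 2 gave -0.11. The difference became 0.09 after a second quantile normalization, so no direction can be given.

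BIRC2, the gene of cIAP1, was at 8.23 and 8.42 untreated and at 7.79 and 7.89 after meayamicin B. The groups did not overlap and lay 0.34 apart at their nearest values. The group means were 8.32 ± 0.13 and 7.84 ± 0.07 (SD, n = 2 arrays per group), a log2 difference of -0.48 (SE 0.19) or a level 1.40-fold lower, with -0.44 and -0.53 in the 2 pairs. BIRC2 did not pass in limma over all rows (adjusted p = 0.496) or in the trended fit (adjusted p = 0.232), and its 95% confidence interval ran from -0.93 to -0.03. Among the genes above background, whose median was -0.09, 20.0% had a lower value than BIRC2.

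BIRC6, on chromosome 2 at 32357023 to 32618878, was at 8.72 and 8.76 in the untreated arrays and at 7.82 and 8.09 in the treated arrays. The untreated values lay close together, and the higher treated value lay 0.63 below the lower untreated one. BIRC6 was 1.73-fold lower, from 8.74 ± 0.03 to 7.95 ± 0.19 (SD, n = 2 arrays per group), with a log2 difference of -0.79 (SE 0.20, 95% confidence interval -1.25 to -0.33). It fell in the trended fit (limma adjusted p = 0.0351) and did not pass in the default fit (limma adjusted p = 0.249). The pairs gave -0.90 and -0.67. The trended call was lost without untreated replicate 1 (limma adjusted p = 0.133), without untreated replicate 2 (limma adjusted p = 0.198) and without treated replicate 1 (limma adjusted p = 0.124), while the difference stayed between -0.93 and -0.65 over the 4 arrays left out in turn.

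BIRC6 had 2 dimmer rows that carry its symbol without a gene ID. The brighter of these was at 5.03 and 5.47 untreated and at 6.09 and 5.36 treated, a difference of 0.47 (SE 0.29, limma adjusted p = 0.693) that came to 1.05 in pair 1 and -0.11 in pair 2. The dimmest row, at 3.79 to 4.53, was above background in 1 of 4 arrays, and no difference is given for it. The mean of the 3 rows gave a difference of -0.21 (limma adjusted p = 0.811). The antisense gene BIRC6-AS2 and the microRNA gene MIR558, which lie within the span of BIRC6, were below background in all 4 arrays, at no more than 2.20 and 2.63.

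BIRC5, the gene of survivin, on chromosome 17 at 78214253 to 78225635, was at 7.90 and 7.73 untreated and at 8.12 and 8.14 treated. Both treated arrays were higher than both untreated arrays, with a gap of 0.22. The means were 7.81 ± 0.12 and 8.13 ± 0.02 (SD, n = 2 arrays per group). The log2 difference of 0.31 (SE 0.19, 95% confidence interval -0.13 to 0.76) did not pass in limma over all rows (adjusted p = 0.685) or in the trended fit (adjusted p = 0.540). The pairs gave 0.22 and 0.41, and 10.3% of genes above background had a higher value.

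Of the antagonists, DIABLO, on chromosome 12 at 122207662 to 122227456, was at 8.17 and 8.13 untreated and at 8.29 and 8.19 treated. The treated values were higher by as little as 0.02 at their nearest. The log2 difference was 0.09 (SE 0.18, limma adjusted p = 0.933), with a 95% confidence interval of -0.34 to 0.53. HTRA2, a mitochondrial serine protease gene on chromosome 2 at 74529405 to 74533556, was at 8.88 and 9.28 untreated and at 8.36 and 8.85 treated. Here the replicate 2 array was higher than the replicate 1 array in both groups, and the groups came within 0.03 of each other. HTRA2 had a log2 difference of -0.47 (SE 0.25, 95% confidence interval -1.06 to 0.11, limma adjusted p = 0.633), with -0.52 and -0.43 in the pairs, and did not pass in the trended fit (limma adjusted p = 0.410). Single arrays moved it, to -0.27 without untreated replicate 2, -0.23 without treated replicate 1 and -0.72 without treated replicate 2. Its span overlaps 2 minus-strand genes, AUP1, an endoplasmic reticulum degradation factor at -0.22 (SE 0.21), and LOXL3, which was below background in all 4 arrays.

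XAF1, on chromosome 17 at 6755447 to 6775647, was at 4.96 and 4.80 untreated and at 5.16 and 4.79 treated. The groups overlapped, and XAF1 was above background in both untreated arrays and in 1 of 2 treated arrays. Its log2 difference was 0.10 (SE 0.21, limma adjusted p = 0.938), and it was -0.08 without treated replicate 1, so that no direction can be given. A lower level of XAF1 had little room to be measured, since the treated background lay at 5.03 and 5.13.

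Counted over the 8 genes, 4 were lower and 2 higher without overlap between groups, against 25.6% lower and 19.7% higher of all genes. The 4 include the row named BIRC3, which was below background and whose groups lay 0.01 apart. Among members above background, BIRC2, BIRC6 and HTRA2 were lower and BIRC5 and DIABLO higher. Of all genes above background, 39.6% were lower and 18.8% higher in this way. The median of the 8 was -0.14, beside -0.01 over all genes. Over the 7 that were above background, which leaves out the row named BIRC3, it was -0.02, beside -0.09 over all genes above background. Over all 8 genes, the pairs of replicates 1 and 2 gave medians of 0.01 and -0.27.

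**Figure D2:**
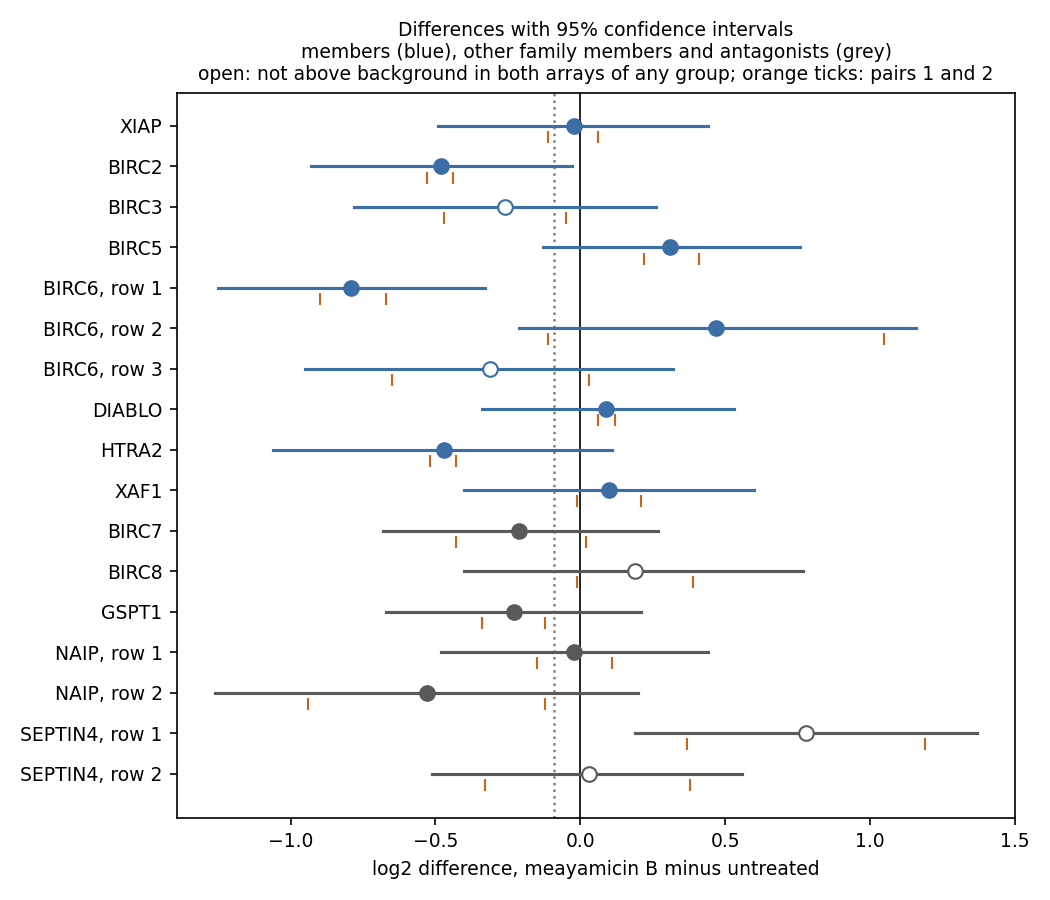
Log2 difference (meayamicin B minus untreated, horizontal axis) for each row of the 8 genes in blue and of 5 further family members and antagonists in grey. Bars are 95% confidence intervals of the default limma fit, orange ticks the replicate 1 and 2 pairs, open points rows not above background in both arrays of any group, and the dotted line the median of -0.09 over genes above background; BIRC6 row 1 and BIRC2 have intervals below 0.

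The genes span very different lengths of genome, from 4152 bases for HTRA2 to 261856 for BIRC6. Protein-coding genes above background were ordered by genomic span and split into 10 equal classes, as a description of these arrays. Their median log2 difference was 0.00 in the class of the shortest genes and -0.35 in that of the longest. BIRC6 belonged to the longest class, where 12.0% of genes were called lower in the trended fit and 19.8% had a lower value than BIRC6. HTRA2 belonged to the shortest class, where 2.88% were called lower, and BIRC2, XIAP and BIRC5 lay in classes 6, 7 and 3 counted from the shortest, whose medians were -0.13, -0.23 and -0.05. Whether span had a part in the difference of BIRC6 was not tested.

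**Figure D3:**
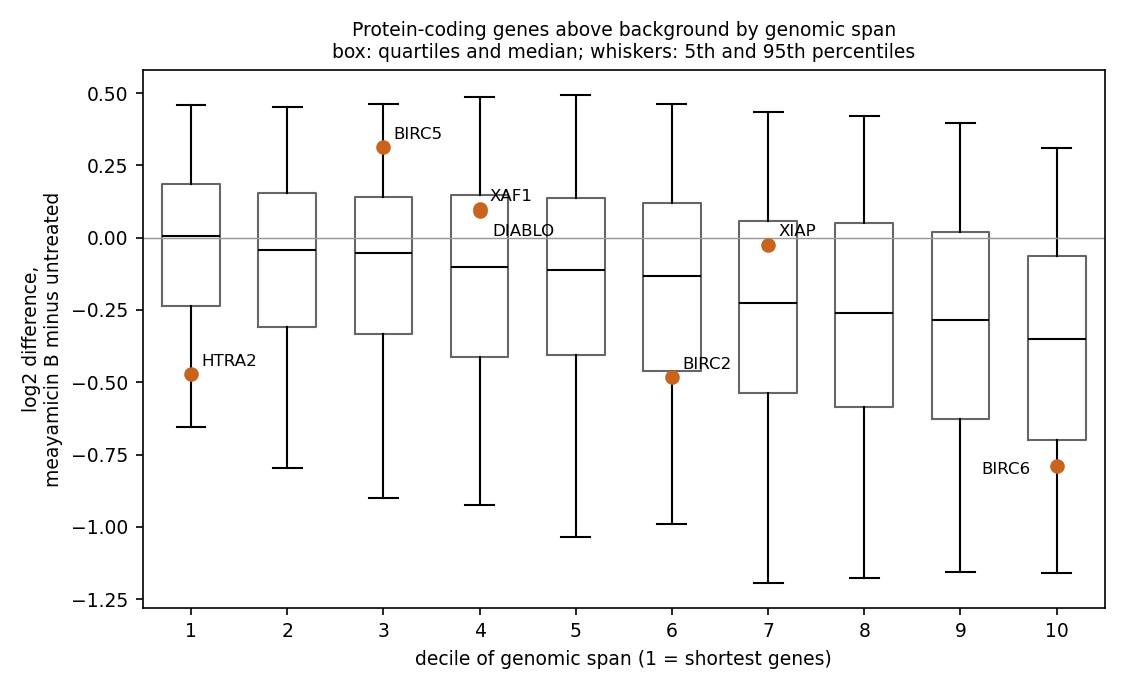
Log2 difference (meayamicin B minus untreated, vertical axis) of protein-coding genes above background in 10 classes of genomic span, with boxes for the median and quartiles and whiskers at the 5th and 95th percentiles. Orange points mark the 7 genes above background; BIRC6 sits below the lower quartile of -0.70 of the longest class, and HTRA2 below the lower quartile of -0.24 of the shortest.

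The genes whose 4 values, centred on their own mean, lay nearest to those of BIRC6 were PWP1 (distance 0.015 on the log2 scale), COG4 (0.038) and SLC25A35 (0.039), over 4 arrays. PWP1 was at 9.46 and 9.50 untreated and at 8.57 and 8.82 treated. With 4 arrays many genes lie close, and nothing further is read from these.

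Other members of the family were compared next. NAIP, an inhibitor that also senses bacterial proteins in the inflammasome, was at 7.82 and 8.07 untreated and at 7.93 and 7.92 treated on its brighter row, a difference of -0.02 (SE 0.19), and at -0.53 (SE 0.31) on a dimmer row. BIRC7 (livin) was at 5.30 and 5.09 untreated and at 4.87 and 5.11 treated, above background only in the untreated arrays. The groups overlapped, the bound set by the treated background was 1.08-fold lower, and BIRC7 did not pass (limma adjusted p = 0.825). BIRC8 was below background in all 4 arrays. Of 2 further proteins reported to bind inhibitor of apoptosis proteins, GSPT1, a translation termination factor, differed by -0.23 (SE 0.19), and SEPTIN4 was below background in all 4 arrays. Of these 5 genes 0 passed in either limma fit. SEPTIN4 had an unadjusted limma p of 0.017 on its brighter row and 0.909 on its dimmer row in the default fit. Both rows were below background, so no difference is given for SEPTIN4.

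Across 102 measured genes of the pathways around the family, 0 passed in limma's default fit, where 35 had an unadjusted p under 0.05, and 11 fell and 0 rose in the trended fit. Over all genes 2.81% were lower and 0.344% higher in the trended fit, and among genes above background, to which 91 of the 102 belong, 6.54% and 0.715%. The 35 genes count both directions together. At the unadjusted p, 9.92% of all genes were lower and 3.63% higher, and 19.5% and 3.98% of genes above background. The trended count of list genes was 7 without untreated replicate 1 and 6 without untreated replicate 2. The median log2 difference of the 102 was -0.16. Caspases and apoptosome genes had a median of -0.46 over 9 measured genes, of which 2 fell in the trended fit. CASP6, an executioner caspase, was at 8.16 and 7.94 untreated and at 6.78 and 6.71 treated. It was 2.47-fold lower (log2 difference -1.30, SE 0.19, limma adjusted p = 0.00620 in the trended fit and 0.0995 in the default fit). CFLAR, which encodes FLIP, an inhibitor of CASP8 at death receptors, was 1.80-fold lower, from 10.38 ± 0.10 to 9.53 ± 0.11 (SD, n = 2 arrays per group), with a limma adjusted p of 0.00721 in the trended fit. CASP9, the initiator caspase that XIAP binds, was at 6.26 and 6.05 untreated and at 5.40 and 5.84 treated, a difference of -0.54 (SE 0.22) that did not pass. FADD, a death receptor adaptor, at 0.47 (SE 0.24), and CASP2 at 0.29 (SE 0.19) had the highest values.

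Genes of TNF receptor and NF-kB signalling around BIRC2 had a median of -0.11 over 22 measured genes, with 2 lower and 0 higher in the trended fit. Their list joins receptor adaptors with kinases and transcription factors and is no single complex. CHUK, the IKK alpha kinase of noncanonical NF-kB signalling, was at 6.26 and 6.19 untreated and at 4.96 and 4.56 treated. Since both treated values lay below background, the fall of CHUK is given as a bound on the means, 2.21-fold lower (limma adjusted p = 0.0164 in the trended fit and 0.0985 in the default fit). This bound sets the untreated mean against the mean over treated arrays of the background or the measured value, whichever was higher. NFKB2, whose product p100 is processed in that pathway, was at 7.93 and 8.00 untreated and at 6.80 and 6.85 treated, 2.20-fold lower (log2 difference -1.14, SE 0.18, limma adjusted p = 0.00996 in the trended fit and 0.113 in the default fit). TRAF3, which with BIRC2 targets MAP3K14 for degradation, at 0.46 (SE 0.21), and TNFAIP3, a deubiquitinating feedback inhibitor, at 0.40 (SE 0.19), had the highest values and did not pass. MAP3K14 was at -0.37 (SE 0.20). TRAF2, RIPK1 and TNFRSF1B were not analysed here.

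The chromosomal passenger complex is the mitotic assembly that holds BIRC5. Its list joins further subunits with factors that recruit it to centromeres, and 0 of these 7 genes passed in either limma fit. AURKB, its kinase, was at 8.34 and 8.40 untreated and at 8.61 and 8.74 treated, and INCENP, its scaffold, at 8.39 and 8.53 untreated and at 8.80 and 9.13 treated. CDCA8 (borealin), which binds BIRC5 directly, was at 9.16 and 9.13 untreated and at 8.67 and 8.91 treated. AURKB, INCENP and BIRC5 had higher values in both treated arrays and CDCA8 lower ones, with log2 differences of 0.31 (SE 0.19), 0.50 (SE 0.21), 0.31 (SE 0.19) and -0.35 (SE 0.19). Without overlap between groups, 18.8% of all genes above background were higher and 39.6% lower. Differences between the subunits were not tested. Of the factors that recruit the complex to centromeres, BUB1 was at -0.61 (SE 0.20) and SGO2 at -0.59 (SE 0.25). SGO1 was at -0.45 (SE 0.23), and HASPIN went the other way, at 0.35 (SE 0.22). None of these was past the threshold. Over the 7 listed genes, subunits and recruitment factors together, the median was -0.35.

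Genes of the G2 and M phases, when BIRC5 is normally expressed, had a median of -0.08 over 22 genes, with 4 lower and 0 higher in the trended fit. HMMR, a spindle protein gene, was 2.76-fold lower (log2 difference -1.46, SE 0.21), and TOP2A, a DNA topoisomerase gene, 2.09-fold lower (-1.07, SE 0.21), with limma adjusted p values of 0.00338 and 0.00777 in the trended fit. CDC20, an activator of the anaphase-promoting complex, at -0.91 (SE 0.18), and the mitotic kinase gene AURKA at -0.76 (SE 0.19) fell in that fit as well. CENPA, the centromeric histone gene, at 0.61 (SE 0.19), and FOXM1, a transcription factor of G2 and M genes, at 0.55 (SE 0.21), lay at the other end and did not pass.

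Interferon-stimulated genes, the class to which XAF1 belongs, had a median of -0.12 over 23 measured genes, of which 15 were above background. OAS2, which makes the activator of RNase L, fell in the trended fit, with 7.86 and 7.70 untreated and 7.01 and 6.88 treated (1.79-fold lower, limma adjusted p = 0.0430), and 0 rose. RIGI, a sensor of double-stranded RNA, was at 3.92 and 4.63 untreated and at 5.86 and 5.23 treated, above background only in the treated arrays. Its treated mean was 1.89-fold above the mean untreated background, which is a bound on the means alone. The pairs gave log2 differences of 1.94 and 0.60, and RIGI did not pass (limma adjusted p = 0.106 in the trended fit). IFI44L and CMPK2, antiviral genes at the ends of the list, were below background in all 4 arrays, and no difference is given for them.

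Mitochondrial proteases and HTRA2 partners had a median of -0.18 over 11 measured genes, with 2 lower and 0 higher in the trended fit. AFG3L2, a subunit of the inner membrane m-AAA protease, was at 9.43 and 9.47 untreated and at 8.23 and 8.44 treated, 2.17-fold lower (limma adjusted p = 0.00434 in the trended fit). OPA1, a dynamin-like GTPase of inner membrane fusion, was 1.58-fold lower (log2 difference -0.66, SE 0.19, limma adjusted p = 0.0479 in the trended fit). OMA1, a protease that cleaves OPA1, was at -0.85 (SE 0.25) and did not pass. HAX1, which binds HTRA2, was at 0.10 (SE 0.19). LONP1, a matrix protease, had 2 rows of nearly equal brightness that differed, at 0.60 (SE 0.29) on a row without a gene ID and -0.12 (SE 0.24) on the other.

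Of the ubiquitin partners of BIRC6, UBA6, the activating enzyme that charges BIRC6, was at 7.74 and 7.73 untreated and at 7.12 and 6.32 treated. USP8, a deubiquitinating enzyme, was at 7.97 and 8.04 untreated and at 7.44 and 7.14 treated. UBA6 and USP8 were lower in both treated arrays, at -1.01 (SE 0.28) and -0.71 (SE 0.20), and did not pass in the trended fit (limma adjusted p = 0.0939 and 0.0910). Of all genes above background, 39.6% were lower without overlap between groups, so a shared direction with BIRC6 is common. RNF41, a ubiquitin ligase, was at 0.19 (SE 0.20).

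**Figure D4:**
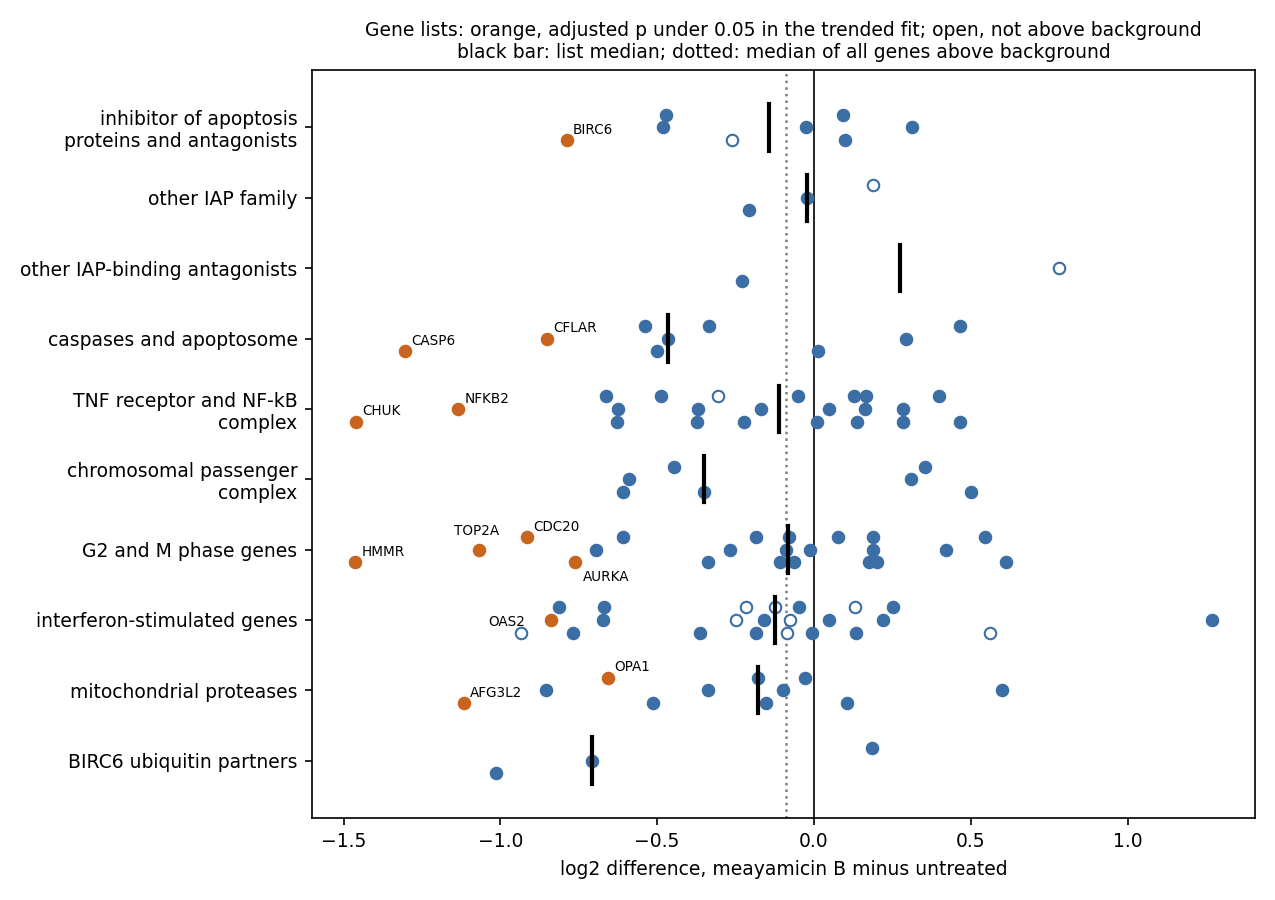
Log2 difference (meayamicin B minus untreated, horizontal axis) of each measured gene in the 8 genes and in 9 related lists, with orange points for genes past an adjusted p of 0.05 in the trended limma fit, open points for genes not above background in both arrays of any group, and black bars for list medians. The list labelled chromosomal passenger complex also holds factors that recruit the complex to centromeres. The list labelled TNF receptor and NF-kB complex also holds kinases and transcription factors of that signalling. All orange points lie below 0, among them HMMR at -1.46, BIRC6 at -0.79 and OPA1 at -0.66. The point of CHUK rests on treated values below background and stands only for a bound on the means, 2.21-fold lower.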

How the data were processed

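RNA of 4 H929 arrays was labelled with a whole-transcript kit, per the labels' protocols. The authors deposited log2 expression values made with RMA and Transcriptome Analysis Console, and the submitters' processing notes name build hg38, with versions not given in the sources used here. RMA brings array distributions together, so a shift of all RNA would be removed. The deposited row values were not fully equalised, since a second quantile normalization moved the median of genes above background from -0.09 to -0.03. The number of arrays limits the precision.

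Of 138745 rows, 2995 control rows were left out. Rows were named through the platform annotation and a RefSeq table (GRCh38.p14), and 36176 carried 1 symbol. Each gene was represented by its brightest row. Groups were compared with limma 3.58.1 in R 4.3.3 over all 135750 rows, without a replicate block, with Benjamini-Hochberg adjustment and a threshold of 0.05. The trended fit sets trend and robust in eBayes. SEs and 95% intervals are those of the default fit.

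The members and lists were chosen with earlier results of these data known. Named genes were the members, the 3 nearest patterns, and up to 2 highest and 2 lowest genes of each list by moderated t. Lists of 3 or fewer genes were named whole. CASP9, MAP3K14, CDCA8, SGO1, HASPIN, CDC20, AURKA and OPA1 fall outside these rules and were chosen after their values were seen. Deviations of same-numbered arrays correlated at r = 0.02 over all rows and 0.07 above background.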

Additional observations from a re-analysis of the deposited data

How the results depend on the processing

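The count of the 8 genes past the threshold was 0 in limma's default fit, with 2 at an unadjusted p under 0.05, and 1 with the intensity-dependent prior. It stayed at 0 with a replicate block, with only rows above background (limma adjusted p = 0.0504 for BIRC6), with a second quantile normalization, with centring on 81 ribosomal protein genes, with each gene's rows averaged, with a minimum of 2-fold and without each array in turn. In the trended fit, alternatives added after seeing the data gave 0 to 1 of the 8 genes without each array in turn and 2 with a replicate block, BIRC6 (limma adjusted p = 0.00256) and HTRA2 (limma adjusted p = 0.0485). The list genes gave 0 calls in the default fit, 11 with the intensity-dependent prior and 10 when only rows above background were tested, which leaves fewer genes to adjust over; in the trended fit they gave 7 and 6 without untreated replicates 1 and 2, 12 and 8 without treated replicates 1 and 2, and 24 with a replicate block. The labels do not tie same-numbered arrays together, so the block is given only here. XIAP changed sign to 0.09 after a second quantile normalization, and leaving out 1 array in turn gave -0.15 to 0.10, with 0.02 when untreated replicate 1 was omitted. XAF1 ran from -0.08, without treated replicate 1, to 0.28. The cause was not tested. BIRC2, BIRC5, DIABLO, HTRA2 and BIRC6 kept their sign in all 15 alternatives. The second quantile normalization moved the median of genes above background from -0.09 to -0.03 and centring on ribosomal protein genes to -0.15. Near the background, XAF1, BIRC7 and the row named BIRC3 have no measurable fall.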
